A study of Dirofilaria immitis with 5 samples.

Results

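The miR-2 family of the canine heartworm Dirofilaria immitis, a filarial nematode, was examined among the small RNAs that live worms released into culture medium. Rows of the deposited miRNA table were chosen by name: a miR number of 2, 13 or 43 after the species prefix, plus the candidate PC-3p-2685_459, which begins with the whole sequence of the row bma-miR-2c_1ss20TC. The rule found 7 of the 1228 rows, 6 named rows and the candidate, and among the rows analysed none bore the number 13 or 43. There were 5 libraries, 1 each from the medium of microfilariae (the blood-borne offspring), third-stage larvae (L3, which mosquitoes pass to the dog), fourth-stage larvae (L4), adult males and adult females. All came from live whole worms with no treatment named, and the labels give neither a strain nor the number of worms. Adult females of this species release microfilariae, so RNA of females and of microfilariae shed into their medium cannot be told apart. There were no replicates: every comparison is between single libraries, no test was possible, and intervals in parentheses are exact 95% binomial intervals that cover counting error only.

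MicroRNAs guide Argonaute proteins to messenger RNAs mainly through the seed, the bases from position 2 to 8. The miR-2 family is known from invertebrates and not from vertebrates, and in Drosophila its members, with those of miR-13, repress the cell death genes reaper, grim and sickle. In many protostomes the genes of miR-2 lie in 1 cluster with the gene of miR-71. A miRNA often occurs as several length forms, which differ at the 3′ end because the precursor was cut at another place or bases were added later.

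The sequences below, written 5′ to 3′ as DNA with the seed in capitals, are shown because the results turn on the length and the seed of these rows. The first is miR-2c, the second its longer form, and the third miR-2a.
bma-miR-2c_1ss20TC: cATCACAGcacgattcggccc
PC-3p-2685_459: cATCACAGcacgattcggcccgt
bma-miR-2a: tATCACAGccagctttgatgt
miR-2c had 21 nt and the candidate 23 nt, the same 21 bases with GT added at the 3′ end. No row of 22 nt began with the miR-2c sequence, and PC-3p-2685_459 was the only other row of the table that did. Whether the added GT is encoded in the worm genome was not tested. miR-2c and miR-2a shared 12 of the 21 positions compared, the seed included, and differed at the first base. Of the 7 chosen rows, 5 held the seed ATCACAG at bases 2 to 8, and 7 rows of the whole table did (0.570%). The string TCACAGC, on the strand given, occurred in 7 rows, each time from base 3 on. None of the 7 chosen rows is listed in the table with a match in the dog genome, against 56 rows of the table that are.

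The other 4 chosen rows were scarce. asu-miR-2a-3p, with 23 nt, extends miR-2a by 2 bases and had 1 read, in microfilariae. bma-mir-2c-p3_3ss17GA18GA20TC had 1 read, in adult females, and differs from miR-2c by G17A and G18A, counted from the 5′ end. bma-mir-2a-p5_1ss14AG, named as the other arm of the miR-2a hairpin, had 8 reads in microfilariae and 4 in adult females and none elsewhere. With 81 and 46 reads of miR-2a, that is 10.1 and 11.5 reads of miR-2a per read of the other arm. bma-mir-2b-1-p5_1ss9CT had 1 read, in adult females. Its sequence, agttgtattggCTGTGATatgt, holds the reverse complement of the seed, in capitals. The 2 rows outside the name rule that share the seed were bma-miR-250_R-2_1ss20CT, with 6 reads in microfilariae, and PC-3p-95811_5, with 4 in microfilariae and 2 in adult females.

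The libraries differed widely in depth and length profile. The table held 727018 reads of microfilariae, 34448 of L3, 326187 of L4, 32983 of adult males and 376070 of adult females, which is 20.2%, 0.870%, 5.08%, 1.0% and 12.2% of the mappable reads. After adapter removal 43.8% of the reads in males were under 18 nt, against between 8.16% and 21.1% in the other libraries. lin-4 alone took 70.6% of the table in L3, 89.6% in L4 and 35.8% in males. A share is given below in percent of the table reads of its library, unless another scale is named, and it moves with the other rows of that library.

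miR-2c was found in every library and took its highest share of the table in the medium of adult males, whereas per mappable read microfilariae were highest. It had 1867 reads in microfilariae, 3 in L3, 66 in L4, 305 in males and 824 in females. These reads were shares of 0.257% (0.245 to 0.269) in microfilariae, 0.00871% (0.00180 to 0.0254) in L3, 0.0202% (0.0156 to 0.0257) in L4, 0.925% (0.824 to 1.03) in males and 0.219% (0.204 to 0.235) in females. By share males stood highest, microfilariae and females lay close together, and both larval libraries lay at or below 0.0202%. By rank among the rows of its library, miR-2c was 14th in males, 26th in microfilariae, 28th in L4, 30th in females and 58th in L3.

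The longer form PC-3p-2685_459 also had its highest share in males, and its highest value per mappable read in microfilariae. It had 514 reads in microfilariae, 1 in L3, 3 in L4, 194 in males and 85 in females. Its share was 0.0707% (0.0647 to 0.0771) in microfilariae, 0.00290% (7.35e-05 to 0.0162) in L3, 0.000920% (0.000190 to 0.00269) in L4, 0.588% (0.509 to 0.677) in males and 0.0226% (0.0181 to 0.0279) in females. The order below males was microfilariae, females and then the larvae, whose intervals overlapped each other. It ranked 18th in males and 67th in females.

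miR-2a, the second miR-2 sequence, was far scarcer. It had 81 reads in microfilariae (0.0111%, 0.00885 to 0.0138), 0 in L3, 0 in L4, 2 in males (0.00606%, 0.000734 to 0.0219) and 46 in females (0.0122%, 0.00896 to 0.0163). The intervals of microfilariae, males and females overlapped. A count of 0 allows a share of up to 0.00871% in L3 and 0.000920% in L4.

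**Figure D1:**
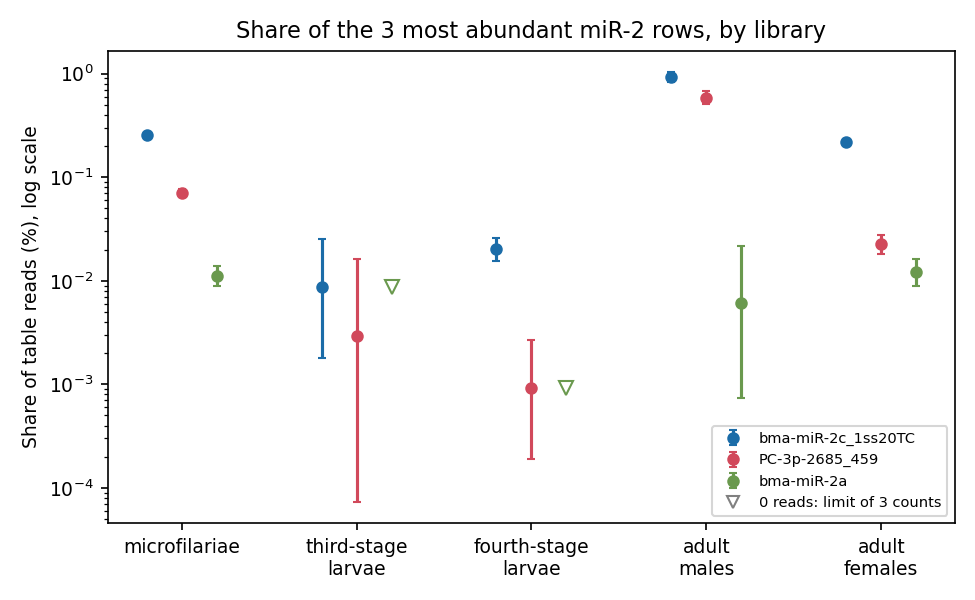
Share of the table reads (%, log scale) of bma-miR-2c_1ss20TC, PC-3p-2685_459 and bma-miR-2a in each of the 5 libraries; bars are exact 95% intervals and open triangles mark 0 reads, at the limit of 3 counts. Both miR-2c forms have their highest share in adult males, at 0.925% and 0.588% (per mappable read, in microfilariae), while miR-2a lies between 0.00606% and 0.0122% in the 3 libraries with reads.

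Within a library, the ratio of miR-2c to miR-2a does not depend on how libraries are scaled. There were 152.5 miR-2c reads per miR-2a read in males, 23.0 in microfilariae and 17.9 in females. L4, with 66 miR-2c reads, and L3, with 3, had 0 miR-2a reads and thus no defined ratio. Between males and L4 the interval (0 to 24.9) included equal ratios. The ratio was 8.51-fold (2.20 to 72.8) higher in males than in females and 6.62-fold (1.76 to 55.8) higher in males than in microfilariae, both resting on the 2 miR-2a reads of the male library. In females it was 0.777 (0.529 to 1.15) of the ratio in microfilariae, an interval that includes equal ratios. With both miR-2c forms summed, an alternative chosen after the data were seen, the ratio was 12.6-fold higher in males than in females.

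The balance of the length forms differed between libraries. The longer form made up 21.6% (19.9 to 23.3) of both forms in microfilariae, 25% (0.631 to 80.6) in L3, 4.35% (0.906 to 12.2) in L4, 38.9% (34.6 to 43.3) in males and 9.35% (7.54 to 11.4) in females. As a ratio there were 0.275 reads of the longer form per read of the shorter in microfilariae, 0.333 in L3, 0.0455 in L4, 0.636 in males and 0.103 in females. Males stood highest among the libraries with more than 4 reads, followed by microfilariae, then females and L4.

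**Figure D2:**
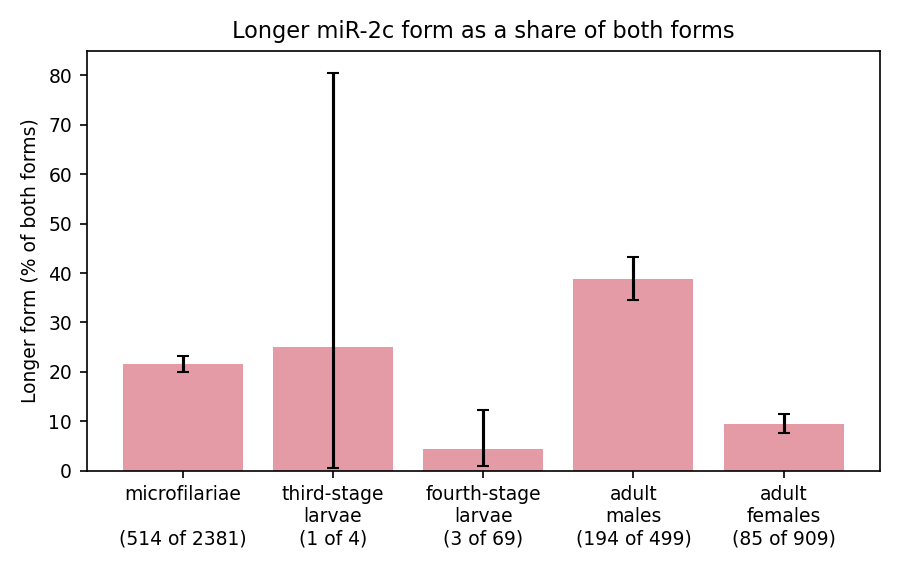
The longer form as a percentage of the reads of both miR-2c forms, by library, with exact 95% intervals and the reads behind each bar. The bar of males (38.9%) is the highest of the 4 libraries with at least 69 reads of both forms, and the 4 reads of L3 leave an interval from 0.631 to 80.6.

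The longer to shorter ratio was 6.17-fold (4.59 to 8.31) higher in males than in females, 14-fold (4.47 to 70.4) higher in males than in L4 and 2.31-fold (1.87 to 2.85) higher in males than in microfilariae. In females it was 0.375 (0.290 to 0.480) of the ratio in microfilariae. In L4 it was 0.165 (0.0331 to 0.508) of the ratio in microfilariae. The nested pairs of rows described below, miR-2c included, gave the background: the ratio was at least 2-fold higher in males than in L4 in 4 of 10 pairs (40%) and higher in males than in microfilariae in 4 of 13 (30.8%). It was at least 2-fold apart either way in 7 of 26 pairs (26.9%) between females and microfilariae, and in 5 of 17 (29.4%) between L4 and microfilariae. These totals keep pairs in which 0 reads of a row left the direction undecided, and such pairs could not be called. The percentages are therefore lower than among the pairs that could be decided. Females and L4 differed by 2.27-fold (0.718 to 11.5), and every comparison with L3 had an interval that includes equal ratios. The reads under 18 nt, 43.8% in males against 12.5% in females, and the reads over 25 nt, 5.76% in males against 48.9% in females, differed as well, and their part in the ratio was not tested.

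Other rows of the table also occur as nested pairs, in which the longer row begins with the whole shorter row. There were 44 such pairs, some of which share a row, and 14 of them differed by 2 bases. GT was the added end in 2. Of 13 pairs with at least 10 reads in each adult library, 8 (61.5%) had a longer to shorter ratio at least 2-fold higher in males, miR-2c among them. The 13 include pairs in which 0 reads of a row left the direction undecided, and these were not called. Most of these 8 rest on few reads: the exact interval lay above equal ratios in 2 of them, miR-2c and cel-miR-1-3p_R-1 with cbr-miR-1_R+2, and included equal ratios in 6. The cel-miR-1-3p_R-1 pair had the larger difference, at least 213.3-fold computed against 3 counts (exact interval from 128.2). Its shorter row had 0 reads in males and 989 in females. In 8 pairs both rows had reads in both sexes. Of these, 7 had the higher ratio in males, and 1 had a larger difference than miR-2c, bma-miR-5364_R+2 with 3 reads of the longer row in males and 1 in females, an interval from 0.678 to 450.2. In 2 pairs each row had at least 10 reads in both sexes: miR-2c, and PC-5p-799_1592 with PC-3p-2841_427, whose longer row made up 15.6% of the pair in males and 15.2% in females, a 1.03-fold difference (0.888 to 1.19); PC-3p-2841_427 is listed with 10 matches in the dog genome.

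**Figure D3:**
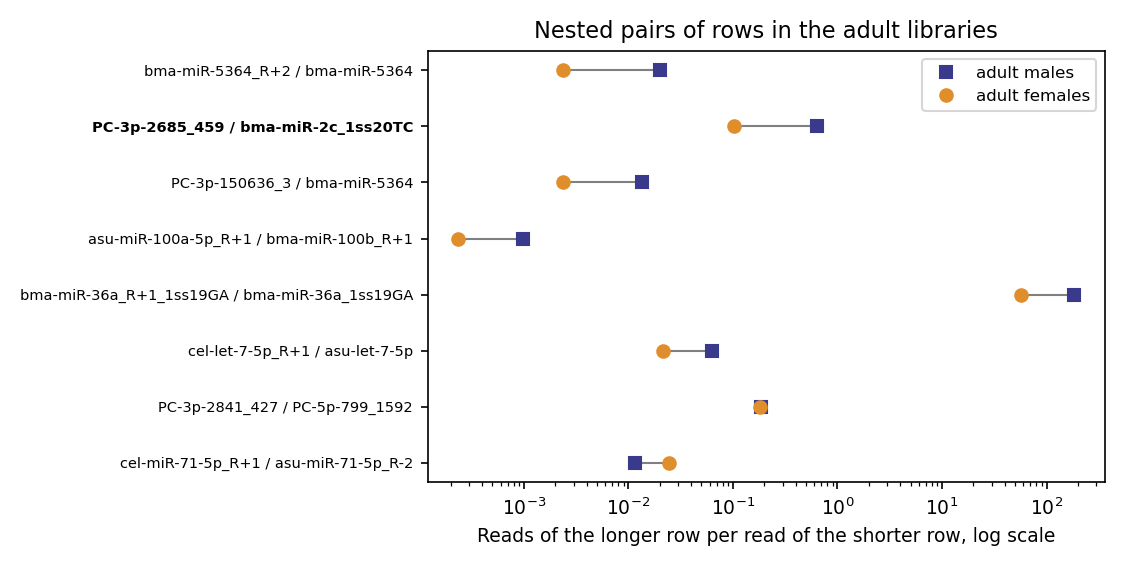
Reads of the longer row per read of the shorter row (log scale) in adult males and adult females, for the 8 nested pairs with reads of both rows in both sexes. In 7 pairs the male value lies to the right of the female value, with the miR-2c pair (bold) at 0.636 in males and 0.103 in females, and the miR-71 pair lies the other way, at a ratio of 0.472 whose interval (0.170 to 1.06) includes equal values.

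Between the sexes, miR-2c took a 4.22-fold (3.69 to 4.82) higher share in males than in females, a direction that turned per mappable read, and the longer form a 26.0-fold (20.1 to 34.0) higher share. The sum of the 7 rows was 501 reads (1.52%) in males and 961 reads (0.256%) in females, a 5.94-fold (5.32 to 6.63) higher share in males that turned to 0.489-fold per mappable read. miR-2a, at 2 reads in males and 46 in females, had 0.496 (0.0583 to 1.90) of the female share, which leaves its direction undecided at this depth. Among 140 rows that reached 10 reads in a sex, males were at least 2-fold higher in 28 (20%) and females in 47 (33.6%). On the point ratio the 3 miR-2 rows that reached 10 reads divided into 2 higher in males and 1, miR-2a, higher in females. Their median log2 ratio of males over females was 2.08, which is that of miR-2c itself. Over the 140 rows the median was 0, the value given to 26 rows whose 0 reads in 1 sex left the direction undecided, and over the 95 rows read in both sexes it was -0.40.

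**Figure D4:**
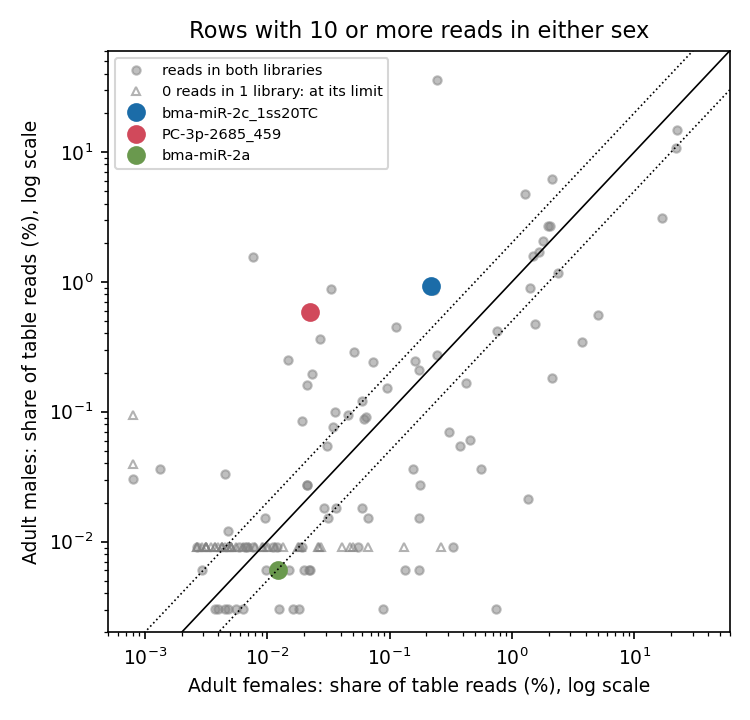
Share of the table reads (%) in adult males against adult females, both on log scales, for the 140 rows with 10 or more reads in either sex; the solid line marks equal shares, dotted lines 2-fold, and triangles rows with 0 reads in 1 library, set at the limit of 3 counts. On this scale both miR-2c forms lie above the upper dotted line (per mappable read miR-2c is lower in males), and miR-2a, with 2 reads in males, lies at the lower one.

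The scaling decided the direction for miR-2c and for the sum of the 7 rows. Counted per mappable read, miR-2c made up 0.00926% in males and 0.0267% in females, so that the male value was 0.347 of the female one. The longer form remained higher in males, with 0.00589% of the mappable reads against 0.00275% in females, a 2.14-fold difference. The table took 1.0% of the mappable reads in males and 12.2% in females, and every male to female ratio shifted by -3.60 on the log2 scale between these scalings. Under the other 5 scalings the male to female ratio ran from 2.38 to 6.61 for miR-2c and from 14.7 to 40.7 for the longer form.

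**Figure D5:**
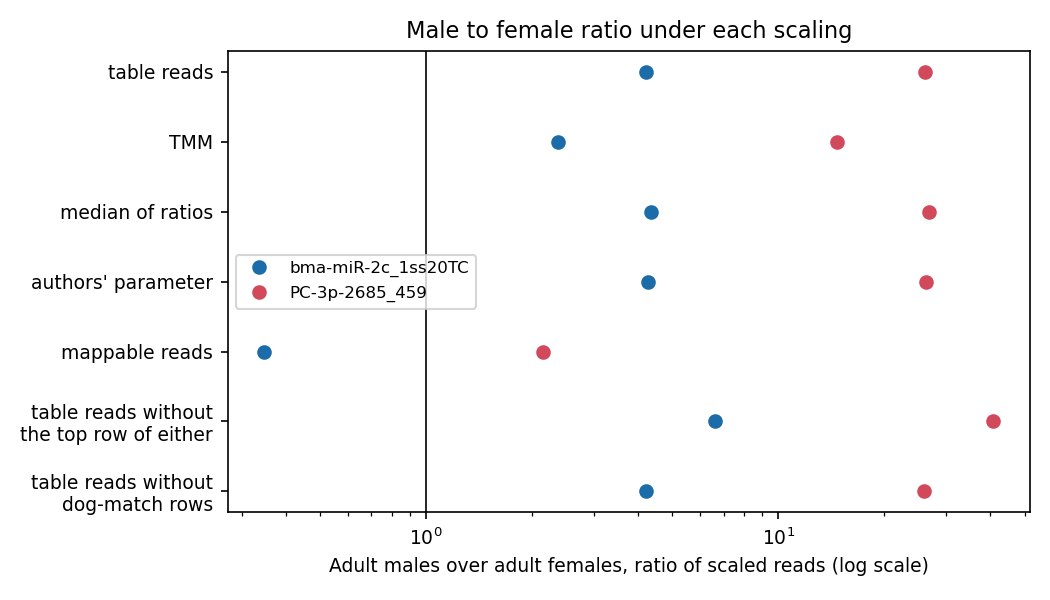
Ratio of scaled reads in adult males over adult females (log scale) for miR-2c and its longer form under 7 scalings of the libraries; the vertical line marks equal values. miR-2c lies below 1 per mappable read, at 0.347, and above 1 under the other 6 scalings, while the longer form is above 1 under each, at a constant distance from miR-2c.

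Against microfilariae, the share of miR-2c was 3.60-fold (3.18 to 4.07) and that of the longer form 8.32-fold (7.02 to 9.83) higher in males. Among 151 rows that reached 10 reads in one of these libraries, 42 (27.8%) were at least 2-fold higher in males. In 45 of the 151 rows, 0 reads in 1 library left the direction undecided. Per mappable read both forms turned to lower in males, since in microfilariae miR-2c made up 0.0519% and the longer form 0.0143% of the mappable reads. In females miR-2c had 0.853 (0.785 to 0.927) of the share in microfilariae, and 1.01 of it with the authors' library size parameter, and the longer form 0.320 (0.251 to 0.403). The share of miR-2a in females was 1.10-fold (0.747 to 1.60) that of microfilariae, an interval that includes equal shares. Of 174 rows, 49 (28.2%) were at least 2-fold higher in microfilariae than in females, and of the 3 miR-2 rows that was the longer form alone.

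The larval libraries held little miR-2 by share. In L4 the share of miR-2c was 12.7-fold (9.93 to 16.5) lower and that of the longer form 76.9-fold (26.2 to 374.0) lower than in microfilariae. miR-2a was at least 12.1-fold lower there, computed against 3 counts (exact interval from 9.63). All 3 rows were thus at least 2-fold lower, as were 120 of 157 rows (76.4%), so the count lies near that of the table. With the authors' library size parameter miR-2c was 1.12-fold and the longer form 6.81-fold lower in L4. In L3 miR-2c was 29.5-fold (10.1 to 143) lower than in microfilariae, 4.83-fold with the authors' parameter and 685.8-fold per mappable read. Of 151 rows, 48 (31.8%) were at least 2-fold lower in L3, both miR-2c forms among them. In 62 of the 151 rows, 0 reads in 1 of these libraries left the direction undecided. Over the 73 rows read in both, the median log2 ratio of L3 over microfilariae was -1.76. The share of miR-2c in L4 was 2.32-fold (0.761 to 11.6) that of L3, an interval that includes equal shares, but 13.6-fold per mappable read, and 4 of 66 rows (6.06%) were at least 2-fold higher in L4, miR-2c among them on its point ratio.

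Adults of both sexes had more miR-2c by share than L4. Males had a 45.7-fold (34.9 to 60.6) higher share, where 52 of 77 rows (67.5%) were at least 2-fold higher. Females had a 10.8-fold (8.42 to 14.1) higher share, where 126 of 148 rows (85.1%) were. With the authors' library size parameter these became 4.82-fold and 1.13-fold. The longer form was 639.5-fold (215.6 to 3128) higher in males and 24.6-fold (8.13 to 121.5) higher in females, against 3 reads in L4. With the authors' parameter these became 67.4-fold and 2.57-fold, and per mappable read 126.1-fold and 58.9-fold.

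miR-71, the miRNA that neighbours miR-2 in many protostomes and that acts in longevity and stress resistance in Caenorhabditis elegans, was set beside miR-2c. The 6 miR-71 rows summed to 5.56% of the table in microfilariae, 0.122% in L3, 0.0932% in L4, 1.60% in males and 1.52% in females. The main row, asu-miR-71-5p_R-2, had a share in males that was 1.06-fold (0.964 to 1.16) that of females, where miR-2c was 4.22-fold. Per miR-2c read there were 21.3 reads of this main miR-71 row in microfilariae, 14 in L3, 4.52 in L4, 1.70 in males and 6.78 in females. The ratio of miR-2c to the main miR-71 row was 3.99-fold (3.39 to 4.69) higher in males than in females. It was 3.14-fold (2.88 to 3.43) higher in females than in microfilariae. For the main miR-71 row and its longer form cel-miR-71-5p_R+1 there were 86.3 reads of the shorter per read of the longer in males, on 6 longer reads, against 40.8 in females. The longer to shorter ratio in males was 0.472 (0.170 to 1.06) of that in females, an interval that includes equal ratios. Another longer form, hco-miR-71_R+3, had 1 read in males and 0 in females.

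The rows most like each form over the 5 libraries were found from the root mean square difference of centred log2 shares, with counts under 3 set to 3, among 61 rows with 10 or more reads in at least 3 libraries. For miR-2c these were PC-3p-2841_427 (1.02), PC-5p-700_1781 (1.11) and asu-miR-5360-5p (1.15), all above 1 log2 unit, or 2-fold. PC-3p-2841_427 is listed with 10 matches in the dog genome and the other two with 0. For the longer form PC-3p-5721_189 was nearest (0.569), with 211 reads in microfilariae, 0 in L3, 2 in L4, 119 in males and 102 in females. Its sequence tAATATCAtatgaaagccgaaga, seed in capitals, is given to show that it has another seed. PC-5p-4536_250 (1.45) and cel-mir-5592-1-p3_1ss8TC (1.48) followed, the last listed with 1 match in the dog genome. In L3 and L4 the floor of 3 counts gave the longer form, PC-3p-5721_189 and PC-5p-4536_250 the same count. Before the row means were subtracted, these rows thus differed from the longer form only in the other libraries. Subtracting the means carried part of that difference into L3 and L4.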

How the data were processed

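Small RNA from the concentrated culture medium of live worms was sequenced in 5 libraries, 1 per stage or sex, from Illumina TruSeq small RNA preparations, per the labels' protocols. The submitters' processing notes name bcl2fastq 1.8.4 and Bowtie; their settings, a build and a miRNA database release are not given in what was used here. Per the file headers, reads under 18 nt and over 25 nt after adapter removal were set aside. The deposited raw columns hold estimated counts per distinct sequence; they were rounded, which changed none of the 7 rows. The deposited signal columns equal the raw count divided by the authors' library size parameter in 6140 of 6140 values (within 1e-06, relative; a raw 0 is written 0.001) and were not otherwise used. 1 line of the table is not analysed here.

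Shares have exact Clopper-Pearson intervals, ratios of shares exact conditional binomial intervals, and ratios of ratios exact conditional odds ratio intervals (Python 3.11.15, scipy 1.17.1); the code was tested on simulated data. For 0 reads, 3 counts were the limit. A row counted as different at 2-fold or more, with 10 or more reads in either library. The reads carry no molecular identifiers, so copies made by PCR are not independent molecules. Alternative scalings were TMM (edgeR 4.0.16), median of ratios over 62 rows with reads in every library, the authors' parameter, mappable reads, and table totals without the most abundant rows or without rows matching the dog genome. Named rows were the chosen rows, those sharing the seed or start of miR-2c, the miR-71 rows and the 3 rows most like each form; pairs of forms beyond these come from the count of nested pairs. Rows and lists were chosen with earlier results of these data known.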

Additional observations from a re-analysis of the deposited data

How the results depend on the processing

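The longer to shorter ratio does not depend on scaling. Unrounded counts and a choice by the start of miR-2c could not change it, since the chosen rows hold 0 fractional counts and no further row begins with miR-2c. Ratios of shares between libraries depend on scaling. For males over females, miR-2c was 2.38 under TMM scaling, 0.347 per mappable read and 6.61 without the most abundant row of either library, and the longer form 14.7, 2.14 and 40.7. The sum of the 7 rows turned to 0.489 per mappable read. For males over microfilariae, miR-2c was 1.29 under TMM scaling, 4.29 with the authors' parameter, 0.178 per mappable read and 4.97 without the most abundant rows. The longer form was 2.98, 9.90, 0.412 and 11.5, and the sum 0.221 per mappable read. For females over microfilariae, miR-2c was 0.543 under TMM scaling, 0.780 by median of ratios, 1.01 by the authors' parameter, 0.513 per mappable read and 0.750 without the most abundant rows, and the longer form 0.204 under TMM scaling and 0.192 per mappable read. In the same order of those 5 scalings, miR-2c was 5.11, 4.87, 4.82, 9.01 and 7.38 for males over fourth-stage larvae, 2.15, 1.12, 1.13, 25.9 and 1.35 for females over fourth-stage larvae, and 0.253, 0.695, 0.890, 0.0198 and 0.556 for fourth-stage larvae over microfilariae. The longer form was 71.6, 68.1, 67.4, 126.1 and 103.3 for males over fourth-stage larvae, 4.88, 2.55, 2.57, 58.9 and 3.07 for females over fourth-stage larvae, and 0.0417, 0.115, 0.147, 0.00327 and 0.0918 for fourth-stage larvae over microfilariae. For third-stage larvae over microfilariae miR-2c was 0.0825, 0.129, 0.207, 0.00146 and 0.0833, and for fourth-stage over third-stage larvae 3.06, 5.38, 4.30, 13.6 and 6.58. Leaving out the rows that match the dog genome moved none of the 32 ratios of shares beyond its interval. Of 140 rows, 28 were at least 2-fold higher in males and 47 in females. These counts became 19 and 64 with TMM factors, 8 and 127 by mappable reads, and 41 and 33 without the most abundant rows. At 1 read or more they were 110 and 47, but of 932 rows. There 1 male read against 0 female reads already passed 2-fold, while 1 female read against 0 male reads left the direction undecided. The 110 and 47 therefore cannot show which sex had more rows higher. Of the 3 rows most like the longer form, 0 remained when 10 reads in at least 4 libraries were required, which fewer rows can meet. Choosing rows by seed gave 7 rows, 5 of them the same. No paired analysis was possible because each group had 1 library. Depth limits third-stage larvae, with 4 miR-2 reads, and miR-2a in males, with 2.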
